A study of Mus musculus with 16 samples.

Results

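Open chromatin was described at 9 genes of the BCL-2 family that decide between survival and death of thymocytes: *Bcl2*, *Bcl2l1*, *Mcl1*, *Bcl2a1b*, *Bcl2l11*, *Bbc3*, *Pmaip1*, *Bak1* and *Bax*. A peak was a member when it overlapped the body of 1 of these genes or the 30 kb on either side (mm10, GENCODE M21). The 4 lists of peaks held 683 such peaks among 476734 in all. Merged across the stages where they shared at least 1 bp, they formed 248 regions of 185978. The measurement was ATAC-seq, in which a transposase cuts accessible DNA and reads pile up where chromatin is open. Thymocytes of 4 wild type C57BL/6J mice, 9 weeks old, were sorted by flow cytometry into DN, DP, SP4 and SP8 cells, giving 16 libraries. DN cells lack CD4, CD8 and CD3, DP cells carry CD4 and CD8, SP4 cells carry CD4 and CD3, and SP8 cells carry CD8 and CD3, all within a gate negative for markers of other blood lineages. The authors pooled the mice of a stage before calling peaks, so each stage has 1 list, no value below has a replicate error and no difference between stages was tested.

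Proteins of the BCL-2 family meet at the outer membrane of the mitochondrion. BAK and BAX are the effectors that open pores in it and release cytochrome c, survival proteins such as BCL-2, BCL-XL (the product of *Bcl2l1*), MCL-1 and A1 (*Bcl2a1*) hold them in check, and BH3-only proteins such as BIM (*Bcl2l11*), PUMA (*Bbc3*) and NOXA (*Pmaip1*) act against the survival proteins or on the effectors directly. In the thymus, DP cells depend on BCL-XL and MCL-1, cells that pass selection depend on BCL-2, and BIM is needed to delete self-reactive cells.

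The sequences shown first are 6 of those at large differences between stages. Each is 200 bp of mm10, plus strand, centred on the summit of a region, and capitals mark matches on either strand to the short motifs of AP-1, RUNX, ETS, E-box, GATA or FOXO factors, whose letters are given with the motif counts. The first lies 9984 bp downstream of the *Bcl2a1b* start site and was called at SP4 and SP8 alone. The printed stretch holds a RUNX match 97 bp before the summit and an AP-1 match 88 bp after it. That AP-1 match runs past the end of the called region. The second lies in an intron of *Bcl2*, 148194 bp from the start site, and was called at DN, DP and SP8 but not at SP4. The third, also in an intron of *Bcl2*, was the tallest DN-only region of the 9 windows. The fourth lies downstream of *Mcl1* and was tall at DN and DP and low at SP4 and SP8. It holds a pair of E-boxes and, 29 bp before its summit, a FOXO match that shares 2 bases with an ETS match. The fifth lies upstream of *Bcl2l1*, in the neighbouring gene *Tpx2*, and was tall at DN and DP. The sixth lies upstream of *Bcl2l11*, in the neighbouring gene *Acoxl*, was not called at DN, and holds a FOXO match 8 bp after its summit.
Bcl2a1b +9984 (chr9:89209093-89209292): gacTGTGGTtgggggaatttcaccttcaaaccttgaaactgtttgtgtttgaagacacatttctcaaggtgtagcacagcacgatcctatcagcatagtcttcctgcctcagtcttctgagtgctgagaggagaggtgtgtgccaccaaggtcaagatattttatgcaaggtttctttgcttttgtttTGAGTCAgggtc
Bcl2 +148194 (chr1:106565980-106566179): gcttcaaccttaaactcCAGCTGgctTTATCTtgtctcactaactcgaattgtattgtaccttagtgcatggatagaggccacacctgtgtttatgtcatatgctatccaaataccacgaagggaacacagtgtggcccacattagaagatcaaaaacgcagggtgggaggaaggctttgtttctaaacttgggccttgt
Bcl2 +70474 (chr1:106643700-106643899): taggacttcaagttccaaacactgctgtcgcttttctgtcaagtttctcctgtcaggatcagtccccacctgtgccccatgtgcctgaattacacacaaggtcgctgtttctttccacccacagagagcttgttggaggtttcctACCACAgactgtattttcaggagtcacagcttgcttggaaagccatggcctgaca
Mcl1 +10049 (chr3:95668737-95668936): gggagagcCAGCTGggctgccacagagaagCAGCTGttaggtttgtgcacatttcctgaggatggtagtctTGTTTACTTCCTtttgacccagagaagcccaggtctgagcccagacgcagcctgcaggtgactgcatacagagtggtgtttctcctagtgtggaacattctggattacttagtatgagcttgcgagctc
Bcl2l1 -25102 (chr2:152856730-152856929): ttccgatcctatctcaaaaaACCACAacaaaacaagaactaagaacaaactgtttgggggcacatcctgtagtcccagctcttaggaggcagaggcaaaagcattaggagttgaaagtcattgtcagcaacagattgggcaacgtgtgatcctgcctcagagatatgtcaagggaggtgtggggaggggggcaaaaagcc
Bcl2l11 -22397 (chr2:128103542-128103741): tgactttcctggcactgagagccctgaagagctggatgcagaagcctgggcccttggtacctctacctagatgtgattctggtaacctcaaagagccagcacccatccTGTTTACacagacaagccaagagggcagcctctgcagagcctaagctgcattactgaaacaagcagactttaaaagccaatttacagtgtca

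The windows held 183 DN, 144 DP, 180 SP4 and 176 SP8 peaks, which are 0.122%, 0.134%, 0.156% and 0.169% of the lists of 150139, 107110, 115074 and 104411 peaks. DN peaks outnumbered DP peaks by 1.27 times in the windows and by 1.4 times in the whole lists, and DN peaks outnumbered SP8 peaks by 1.04 times in the windows and by 1.44 times in the whole lists. With the same number of peaks taken from each list, those highest by q-value, the ratio of DN to DP peaks in the windows turned to 0.937, against 1.0 by construction for the lists. The authors brought the libraries to a similar depth before pooling them, and an uncalled site can still be open below the 5% FDR at which peaks were called. In sorted bulk cells, an open site in fewer cells and less open chromatin per cell cannot be told apart. Promoters of 7 of 8 thymocyte markers were called at all stages and that of *Cd2* at SP4 and SP8 alone. The promoters of 5 of 5 myeloid markers were called at DN, against 2 of 5 at each later stage, with *Csf1r*, *Lyz2* and *Csf3r* called at DN alone. B cell, erythroid, natural killer and thymic epithelial markers had a promoter peak for 1 of 5, 1 of 5, 1 of 4 and 1 of 5 genes at DN. The part of other cells in the DN values was not tested.

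Of the 248 regions, 94 (37.9%, 95% Wilson interval 32.1 to 44.1) were called at all 4 stages, against 34.1% of all regions and 35.4% of the regions in like windows of all protein-coding genes on autosomes. A further 74 (29.8%, against 27.4% of all regions) were called at 2 or 3 stages, and 80 (32.3%, 26.7 to 38.3) at a single stage, against 38.5% of all regions. Intervals here cover counting error only. The shares called at all 4 stages and at 2 or 3 stages lay close to those of the genome as a whole. The interval of the single-stage share ended just below the 38.5% of all regions, but it held the 37.4% of the regions in like windows.

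At DN 166 regions were called (66.9%, against 75.7% of all regions) and at DP 134 (54.0%, against 53.9%). At SP4 169 were called (68.1%, against 58.3%) and at SP8 162 (65.3%, against 53.0%). The shares called at DN, SP4 and SP8 thus lay further from the genome-wide shares, while that at DP did not. SP4, SP8 or both, without DN and DP, accounted for 62 regions (25%, 20 to 30.7), against 15.4% of all regions, and 17 of them were called at both (6.85%, against 3.82%). DN, DP or both, without SP4 and SP8, accounted for 44 (17.7%, 13.5 to 23.0), against 32.5%. Thus the regions at these genes were called at the mature stages alone more often, and at the immature stages alone less often, than regions at large. Of the single-stage regions, 27 were DN-only (10.9% of the 248, 7.59 to 15.4, against 21.7% of all regions) and 8 were DP-only (3.23%, against 5.17%). A further 25 were SP4-only (10.1%, 6.92 to 14.5, against 7.39%) and 20 SP8-only (8.06%, 5.28 to 12.1, against 4.21%).

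With equal numbers of peaks per list, the share called at SP4, SP8 or both alone was 29.0%, against 20.3% of all regions so treated, and that called at DN, DP or both alone 12.2%, against 23.8%. The DN-only share fell to 4.52%, against 11.1%. *Bcl2* alone holds 79 of the 248 regions. Without its window, 32 of 169 regions (18.9%, 13.7 to 25.5) were called at SP4, SP8 or both alone, so that the interval reached below the 15.4% of all regions, and 34 (20.1%, 14.8 to 26.8) at DN, DP or both alone. The share at the mature stages alone therefore rested largely on *Bcl2*, while the low share at the immature stages alone was seen in the other 8 windows as well.

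From DN to DP, 52 regions (21.0%, 16.4 to 26.5, against 30.7% of all regions) were called at DN and not at DP, and 20 (8.06%, against 8.86%) at DP and not at DN. From DP to SP4, 26 regions (10.5%, against 13.7%) were called at DP alone of the pair and 61 (24.6%, 19.7 to 30.3, against 18.1%) at SP4 alone of the pair. From DP to SP8 the counts were 24 (9.68%, against 15.1%) and 52 (21.0%, against 14.2%). In both steps out of the DP stage, member regions called only later outnumbered those called only at DP, whereas over all regions this was so for SP4 and not for SP8. The genes differed in this, and the largest excess over DP was at *Bcl2*, with 25 regions for SP4 and 19 for SP8. Counts at SP4 and SP8 also exceeded that at DP at *Mcl1*, *Bcl2a1b*, *Bbc3*, *Pmaip1* and *Bax*. They equalled it at *Bcl2l1* and were lower at *Bcl2l11* and *Bak1*.

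**Figure D1:**
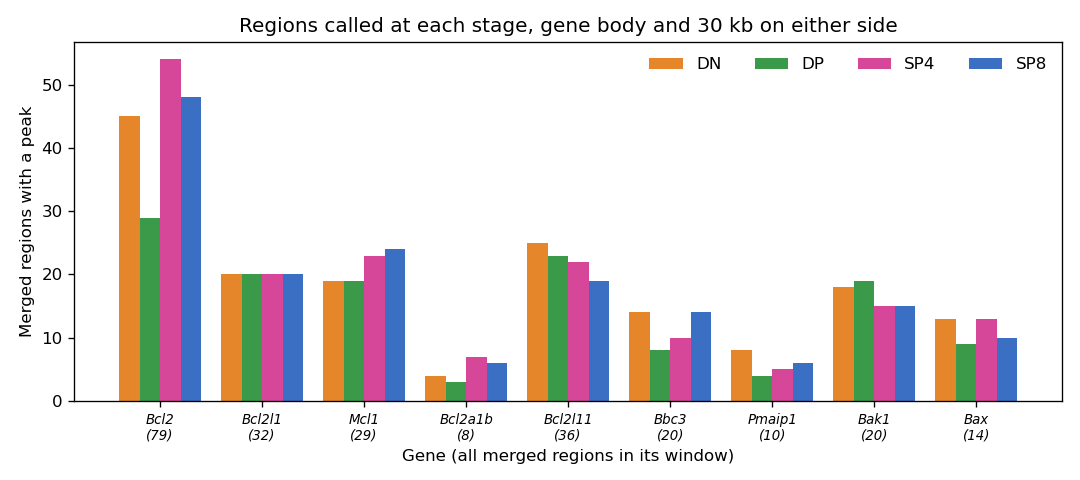
Bars give the number of merged regions with a peak at DN, DP, SP4 and SP8 (vertical axis, regions) in the gene body and 30 kb on either side of each gene (horizontal axis, all regions of the window in brackets). At *Bcl2* the bars stand at 45, 29, 54 and 48, lowest at DP, while at *Bcl2l1* all stand at 20 and at *Bak1* the DN and DP bars (18 and 19) exceed those of SP4 and SP8 (15 and 15).

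By role, the 148 regions of the survival genes were called 88 times in DN, 71 in DP, 104 in SP4 and 98 in SP8. The 66 regions of the BH3-only genes were called 47, 35, 37 and 39 times, and the 34 of the effectors 31, 28, 28 and 25 times. The equal effector counts at DP and SP4 pooled 19 and 15 regions at *Bak1* with 9 and 13 at *Bax*. As shares, the survival genes were called at 59.5%, 48.0%, 70.3% and 66.2% in DN, DP, SP4 and SP8, the BH3-only genes at 71.2%, 53.0%, 56.1% and 59.1%, and the effectors at 91.2%, 82.4%, 82.4% and 73.5%. Over all regions, DN was the highest stage as well (75.7%, 53.9%, 58.3% and 53.0%). Without *Bcl2*, the 69 regions of the survival genes were called 43, 42, 50 and 50 times (62.3%, 60.9%, 72.5% and 72.5%), with SP4 and SP8 still the highest and a smaller gap to DP. The effectors had the highest share of regions called at all stages, 23 of 34 (67.6%), against 33.8% for survival genes, 31.8% for BH3-only genes and 34.1% of all regions. By place, 10 of 12 promoter regions and 24 of 87 intronic regions (27.6%) were called at all stages. Shares by place were not counted over the genome, so whether this contrast is particular to these genes was not tested.

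All 9 promoters, taken as a peak within 500 bp of the start site, were called at all 4 stages. So were 56.1% of 20807 protein-coding promoters, while 32.7% were called at none. With equal numbers of peaks per list, 7 of the 9 were called at all stages. The height of a peak is given here as the percentage of peaks of its own stage with a lower fold enrichment over local background. A percentile of this kind depends on the other peaks of the list, so it can order stages differently from fold enrichment. At the *Bak1* promoter, for example, DN stood at 79.3 and SP8 at 75.5, with fold enrichments of 11.15 and 11.71. By this percentile the promoters ranged from *Bax*, at 19.6 in DN, to *Bcl2l1*, at 97.8 in SP8.

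The *Bcl2l1* promoter was the tallest at every stage, at 97.6 in DN, 92.9 in DP, 95.5 in SP4 and 97.8 in SP8, with fold enrichments of 24.4, 18.7, 23.0 and 27.6. Its range of 4.93 points over the stages was wider than that of only 9.91% of all regions called at all 4 stages. The *Mcl1* promoter stood at 73.3, 82.5, 71.5 and 76.4, and that of *Bcl2* at 56.4, 64.8, 52.9 and 62.1. The *Mcl1* promoter held a pair of regions, and the taller value at SP4 came from the other region than at DN, DP and SP8. The region that was taller at those stages stood at 73.3, 82.5, 54.6 and 76.4, a range of 27.8 points that was wider than that of 62.9% of regions called at all 4 stages. The other *Mcl1* region stood at 70.5, 69.6, 71.5 and 57.8. By the percentile of their tallest peak, the promoters of *Mcl1* and *Bcl2* were highest at DP. At *Bcl2* the lead was small, and the fold enrichment was higher at SP8 (8.14) than at DP (7.52). Among the death genes, *Pmaip1* stood at 89.1, 90.1, 81.3 and 76.3 and *Bak1* at 79.3, 72.6, 65.3 and 75.5. *Bcl2l11* stood at 48.6 in DN, 69.4 in DP, 53.0 in SP4 and 38.5 in SP8, highest at DP. *Bax* stood at 19.6, 35.8, 23.3 and 48.9, the lowest of the 9 promoters at DN and, after *Bcl2a1b*, at DP. The merged region there reached further into the gene, and with all its peaks it stood at 61.1, 47.2, 23.3 and 48.9, so the order of the stages at *Bax* depended on the distance allowed from the start site.

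By the tallest peak within 500 bp of the start site, the promoters of *Bcl2a1b* and *Bbc3* differed most between stages, in opposite directions. *Bcl2a1b* stood at 30.4 in DN and 21.9 in DP, and at 87.3 in SP4 and 85.7 in SP8. *Bbc3* stood at 85 in DN and 79.8 in DP, and at 44.4 in SP4 and 49.1 in SP8. The fold enrichment at *Bbc3* was 13.4, 11.5, 5.36 and 6.05, and the merged region, with peaks further into the gene, stood at 60.6 in SP4. The range of that merged region was 35.9 points, wider than that of 74.9% of regions called at all 4 stages. It was narrower than the 37.9 points of the merged region at *Bax*. By the percentile of q-value the *Bbc3* promoter stood at 97.5, 95.8, 74.8 and 77.6. Thus the promoter of the death gene encoding PUMA was taller at the immature stages and that of the survival gene encoding A1 at the mature ones.

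**Figure D2:**
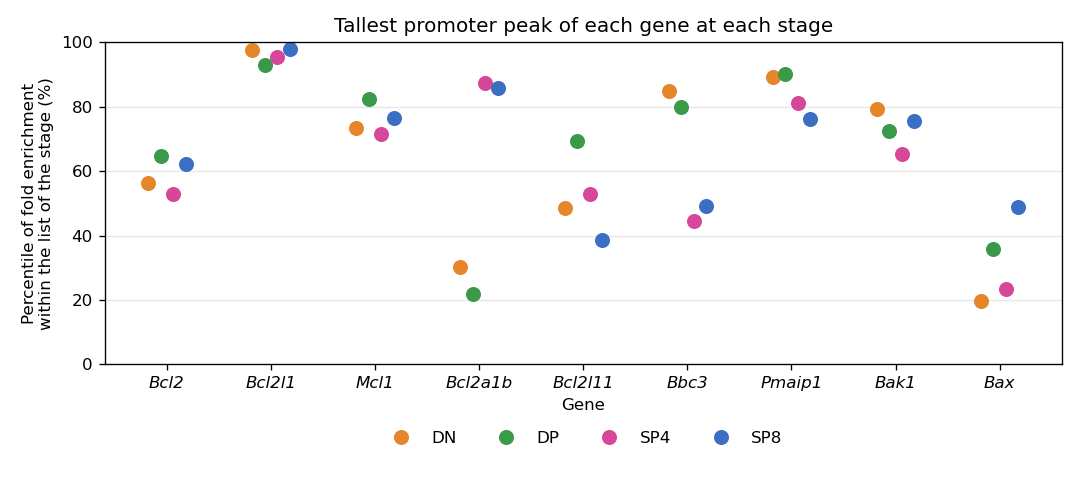
Points give, for the tallest promoter peak of each gene (horizontal axis), the percentile of its fold enrichment within the list of its stage (vertical axis, %, from 0 to 100), coloured by stage. *Bcl2l1* lies above 92 at every stage, *Bcl2a1b* splits between 21.9 and 30.4 (DP, DN) and 85.7 and 87.3 (SP8, SP4), and *Bbc3* splits the other way.

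*Bcl2* (chr1:106538178-106714274, minus strand) encodes the founding survival protein of the family. Its window of 236.0 kb overlaps *Kdsr*, and its density of 33.5 regions per 100 kb was higher than that around 95.6% of protein-coding genes. Of its 79 regions, 59 lay in introns. Peaks were called in 45 regions in DN, 29 in DP, 54 in SP4 and 48 in SP8, so DP had the fewest and SP4 the most. The share called at SP4 exceeded that at DP by 31.6 points, more than in 97.3% of the 5087 protein-coding windows with at least 20 regions, whose median was 0.0 points. For SP8 the excess was 24.1 points, more than in 96.2% of windows, and for DN it was 20.3 points, more than in 62.6%, against a median of 16.

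At *Bcl2*, 30 regions (38.0%) were called at SP4, SP8 or both alone, of which 14 were SP4-only, 11 SP8-only and 5 shared by both. DN, DP or both alone held 10 (12.7%), of which 7 were DN-only and 1 DP-only. The counts at SP4 and SP8 exceeded that at DP by 25 and 19 regions, and by 19 and 20 with equal numbers of peaks per list. The tallest region outside any promoter, those of neighbouring genes included, lay in an intron 51121 bp from the start site (chr1:106662884-106663441), at 98.7 in DN, 90.9 in DP, 56.2 in SP4 and 75.4 in SP8. It was thus open at all stages and tallest at DN. The region 148194 bp from the start site, printed above, had the largest difference, at 92.0 in DN, 75.7 in DP and 37.7 in SP8, with no peak at SP4. The DN-only region at 70474 bp stood at 76.9, higher than 95.2% of all DN-only regions.

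The tallest SP4-only region of *Bcl2*, in an intron 55595 bp from the start site, stood at 45.0, higher than 83.9% of all SP4-only regions. The SP8-only regions at 43645 and 151797 bp stood at 43.6 and 29.4, higher than 91.3% and 75.5% of all SP8-only regions. These were the tallest of their kind, and most SP4-only and SP8-only regions of *Bcl2* stood below the middle of all such regions. The lowest stood at 1.0 in SP4 and 1.7 in SP8, higher than only 1.82% and 5.22% of all such regions. The 5 regions called at both SP4 and SP8 alone ranged from 0.8 to 65.7 in SP4 and from 10.3 to 62.2 in SP8. Chosen after its values were seen, that 16894 bp from the start site stood at 65.7 and 62.2, and that at 144475 bp at 65.3 and 52.3. Also chosen after its values were seen, the intronic region at 66731 bp was called at every stage, at 80.7 in DN, 70.9 in DP, 97.5 in SP4 and 95.9 in SP8, and its peaks widened from 230 and 228 bp at DN and DP to 466 and 484 bp at SP4 and SP8.

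**Figure D3:**
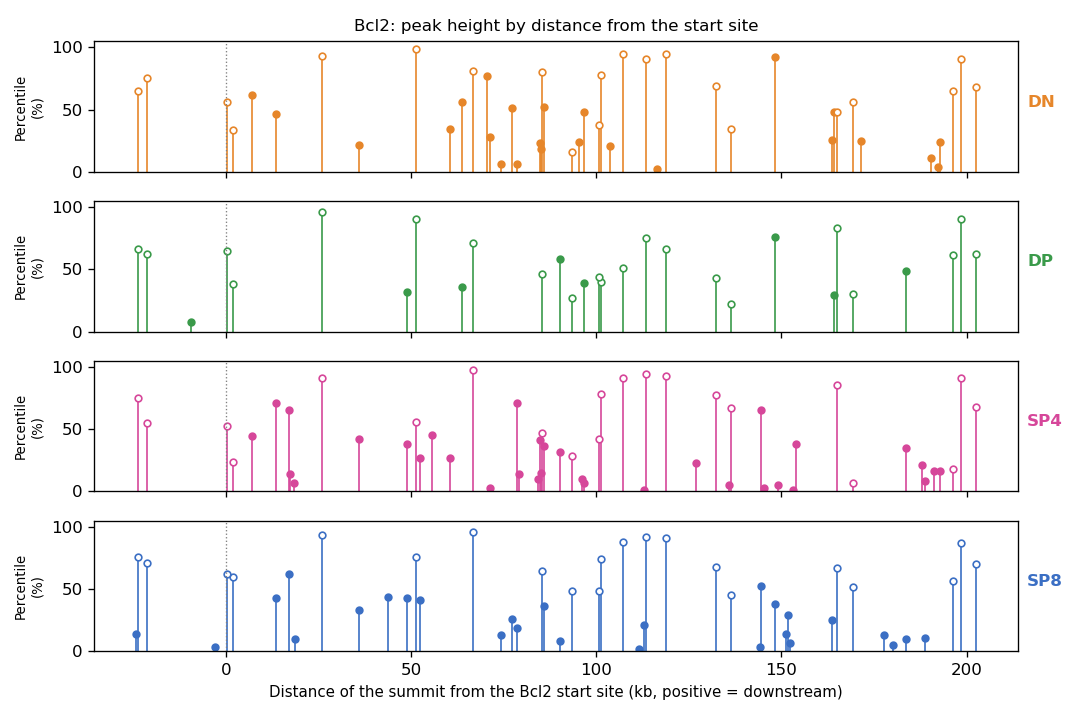
Each stem is a region of the *Bcl2* window with a peak at the stage of the panel, placed by the distance of its summit from the start site (horizontal axis, kb, positive downstream, dotted line at 0) and as high as its percentile of fold enrichment (vertical axis, %). Open circles are the 21 regions called at all 4 stages and filled circles the others, which are few at DP and many, mostly low, at SP4 and SP8.

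*Bcl2l1* (chr2:152780668-152831728, minus strand) encodes BCL-XL. Its 32 regions were called 20 times at each of the 4 stages, so its counts did not move, with 13 called at all stages. The heights did move. The region 25102 bp upstream, inside *Tpx2* (chr2:152856466-152856947), stood at 97.6 in DN, 88.2 in DP, 45.0 in SP4 and 19 in SP8. Its fold enrichment was 24.3, 15.4, 5.45 and 3.71, and its range of 78.5 points was wider than that of 99.3% of all regions called at all 4 stages. The tallest region outside any promoter, 56160 bp downstream of the start site (chr2:152775318-152775984), stayed at 91.8 to 97.9 at every stage, and the region at the *Tpx2* start site, 16205 bp upstream, at 93.1 to 98.5. The 3 regions described next were chosen after their values were seen. In an intron, the region at 37028 bp stood at 74.2 in DN, 86.0 in DP, 41.1 in SP4 and 32.8 in SP8. By contrast, the intronic regions at 28335 and 5726 bp had no peak at DN or DP and stood at 71.2 and 64 in SP4 and at 60.9 and 64.4 in SP8. Equal counts at *Bcl2l1* thus covered sites that were lower and sites that were called only at the SP stages.

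**Figure D4:**
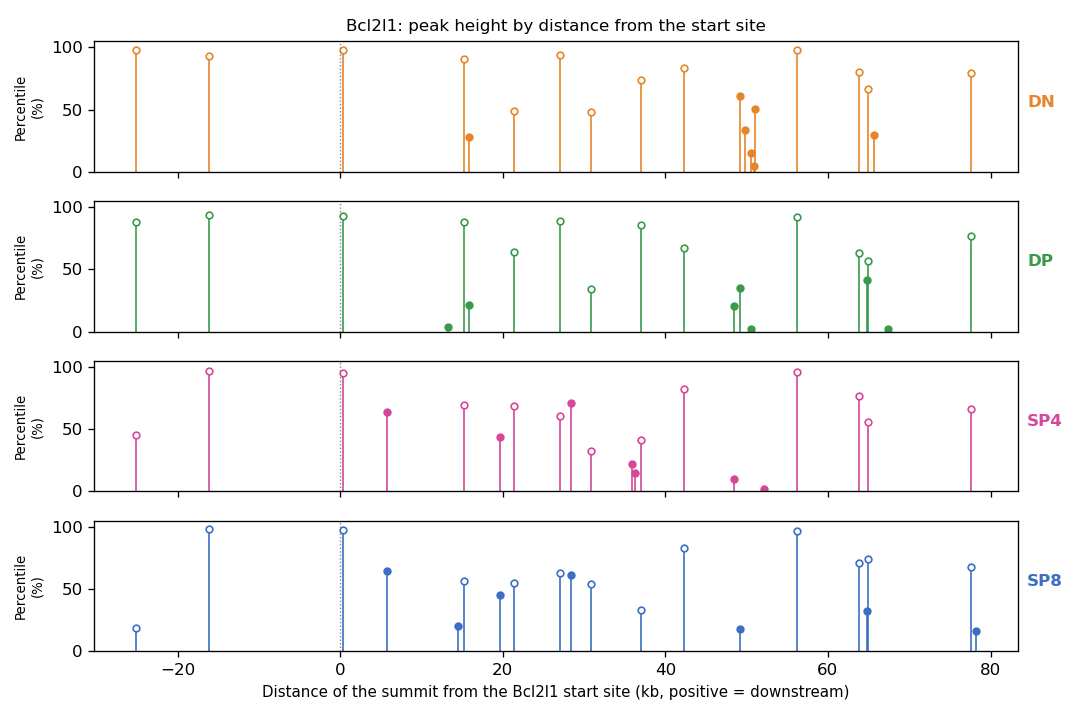
Stems are the regions of the *Bcl2l1* window with a peak at the stage of the panel, by distance of the summit from the start site (horizontal axis, kb, positive downstream, dotted line at 0) and percentile of fold enrichment (vertical axis, %). Open circles are the 13 regions called at all 4 stages and filled circles the others. The stem 25102 bp upstream shrinks from 97.6 at DN to 19 at SP8, while that at the start site stays above 92.

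*Mcl1* (chr3:95658788-95663176, plus strand) encodes a short-lived survival protein. Its window of 64.4 kb, which includes parts of *Ensa* and *Adamtsl4*, held 29 regions, a density of 45.0 per 100 kb that was higher than around 99.7% of protein-coding genes. They were called 19, 19, 23 and 24 times at DN, DP, SP4 and SP8, with 13 called at all stages. The region 10049 bp downstream of the start site (chr3:95668569-95669272), printed above, stood at 69.8 in DN, 82.6 in DP, 9.7 in SP4 and 3.8 in SP8, and its range of 78.7 points was the widest of the 94 member regions called at all 4 stages. By the percentile of q-value the same region stood at 90.0, 96.1, 57.3 and 42.5, in the same order but with a smaller drop. Its neighbour at 7457 bp, chosen after its values were seen, ran the opposite way, at 1.4 in DN, 39.1 in DP, 71.2 in SP4 and 65.4 in SP8. Neighbouring sites downstream of *Mcl1* thus differed between stages in opposite directions. The tallest region outside any promoter, 6374 bp upstream, stood at 91.1 in DN and at 63.6, 64 and 51.7 in DP, SP4 and SP8. The DP-only region at 23115 bp, in *Adamtsl4*, stood at 25.7.

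*Bcl2a1b* (chr9:89199209-89207827, plus strand) encodes 1 of the near-identical A1 proteins. Its 8 regions were called 4 times in DN, 3 in DP, 7 in SP4 and 6 in SP8, and 4 of them at SP4, SP8 or both alone. The share called at SP4 exceeded that at DP by 50 points, more than in 99.0% of the 14202 windows with at least 8 regions, and for SP8 by 37.5 points, more than in 98.6%. The promoter (chr9:89198753-89199523) rose in fold enrichment from 4.21 in DN and 3.74 in DP to 16.1 in SP4 and 15.9 in SP8, and its peak widened from 140 and 125 bp to 771 and 751 bp. Its range of 65.4 points was wider than that of 96.8% of regions called at all 4 stages. The region 9984 bp downstream, inside the overlapping gene *Gm29094* (chr9:89208918-89209283), had no peak at DN or DP and stood at 86.3 in SP4 and 78.2 in SP8. In contrast, the region 13432 bp downstream, in *Gm29094* and *Mthfs*, was called at every stage, at 97.1, 92.1, 72.1 and 88.1. The SP counts at *Bcl2a1b* exceeded the DP count only in the flanks, since within the gene body alone they were equal.

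The A1 genes are close copies of each other. The 186 bp upstream of the *Bcl2a1b* start site (chr9:89199023-89199208, plus strand, GRCm38.p6) and the matching stretch of *Bcl2a1a* (chr9:88956714-88956899, plus strand) were identical at 185 positions (99.5%), and the capital marks where they differ.
Bcl2a1b upstream: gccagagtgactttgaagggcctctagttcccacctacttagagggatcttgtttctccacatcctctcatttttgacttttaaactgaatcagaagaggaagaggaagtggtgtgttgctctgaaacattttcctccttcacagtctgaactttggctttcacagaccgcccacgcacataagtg
Bcl2a1a upstream: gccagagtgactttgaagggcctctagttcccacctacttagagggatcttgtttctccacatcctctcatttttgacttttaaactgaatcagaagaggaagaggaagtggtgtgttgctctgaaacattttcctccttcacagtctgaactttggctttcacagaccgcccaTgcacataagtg
The authors kept uniquely mapped reads, which leaves out reads that fit more than 1 copy, so values at either promoter are uncertain. No promoter peak of *Bcl2a1a* was called at any stage. *Bcl2a1d*, 95.7% identical over the stretch, had a promoter peak at 98.7, 98.1, 99.6 and 98.0 in DN, DP, SP4 and SP8. Its peak was 488 and 527 bp wide at DN and DP and 749 and 746 bp wide at SP4 and SP8, and by the percentile of q-value it stood at 91.1, 88.7, 99.0 and 95.6. In width and q-value *Bcl2a1d* was thus higher at SP4 and SP8, as *Bcl2a1b* was, while its fold enrichment stood near the top of the list at every stage.

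*Bcl2l11* (chr2:128126038-128162547, plus strand) encodes BIM. Its 36 regions were called 25 times in DN, 23 in DP, 22 in SP4 and 19 in SP8, with 11 called at all stages. The largest difference was at the region 22397 bp upstream, in *Acoxl* (chr2:128103403-128103891), which had no peak at DN and stood at 48.6 in DP, 80.0 in SP4 and 93.6 in SP8. This region was thus higher in SP4 and in SP8 than in DP, with fold enrichments of 5.38, 12.7 and 21.5. The tallest region outside any promoter lay 64386 bp downstream of the start site, at 95.4 in DN, 75.6 in DP, 77.0 in SP4 and 91.3 in SP8. *Bcl2l11* also held 2 of the 3 tallest regions of the 9 windows that were DN-only, at -19857 bp (66.8) and 16470 bp (54.9), and 2 of the 3 that were SP4-only, at -13469 bp (59.5) and -26284 bp (57.6). These were higher than 90.3% and 81.8% of all DN-only regions and than 94.1% and 93.4% of all SP4-only regions. The tallest DP-only region of the 9 windows also lay here, 12041 bp upstream, at 26.0. All but that at 16470 bp lie upstream of the gene. Chosen after its values were seen, the intronic region at 30164 bp was tall at DN and DP (72.2 and 65.0) and low at SP4 and SP8 (8.7 and 26.3), and by the percentile of q-value at 94.9, 87.7, 49.7 and 60.2.

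*Bbc3* (chr7:16308393-16318205, plus strand) encodes PUMA. Its 20 regions were called 14 times in DN, 8 in DP, 10 in SP4 and 14 in SP8, with 7 called at all stages. The share at SP8 exceeded that at DP by 30 points, more than in 97.9% of windows with at least 20 regions. The region 28322 bp downstream, in *Sae1* (chr7:16337826-16338113), stood at 26.0 in DN, 27.0 in DP, 73.6 in SP4 and 72.3 in SP8, opposite in direction to the promoter. The region 14606 bp upstream was the steadiest of those named, at 87.3, 84.7, 84.8 and 86.4, with a range wider than that of only 4.4% of regions called at all 4 stages.

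*Pmaip1* (chr18:66458533-66465565, plus strand) encodes NOXA. Its 10 regions were called 8 times in DN, 4 in DP, 5 in SP4 and 6 in SP8, with 3 called at all stages. The region 20935 bp upstream was the tallest of all 248 at DN, at 99.2 with a fold enrichment of 29.1, and stood at 61.5 in DP and 53.5 in SP4, with no peak at SP8. Its peaks at DP and SP4 had fold enrichments of 7.02 and 6.4. The tallest SP8-only region of the 9 windows lay 5176 bp upstream of *Pmaip1*, at 45.6, higher than 92.8% of all SP8-only regions.

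*Bak1* (chr17:27019810-27029009, minus strand) encodes the effector BAK. Of its 20 regions, 18 were called in DN, 19 in DP, 15 in SP4 and 15 in SP8. No region was called at SP4, SP8 or both alone. Regions called at all stages numbered 14 (70.0%), a share higher than in 99.5% of windows with at least 20 regions, whose median was 38.1%. The share at SP4 was 20 points below that at DP, a difference higher than in only 4.13% of windows. With no flank, or a flank of 10 kb, the difference was 1 region. *Ggnbp1* overlaps the *Bak1* promoter, and *Zbtb9* and *Itpr3* lie nearby, so the regions were not assigned to *Bak1*. The region 14893 bp upstream stood at 59.9 in DN, 74.9 in DP and 51.6 in SP8, with no peak at SP4. The tallest outside any promoter, 11480 bp upstream, was highest at SP4, at 94.3, against 77.5, 83.8 and 84.3 in DN, DP and SP8. The DP-only region 21601 bp upstream stood at 15.4.

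*Bax* (chr7:45461697-45466898, minus strand) encodes the other effector. Its 14 regions, in a window crowded with genes such as *Ftl1*, *Gys1*, *Ruvbl2* and *Nucb1*, were called 13, 9, 13 and 10 times at DN, DP, SP4 and SP8. Called at all stages were 9 (64.3%), a share higher than in 96.0% of the 9502 windows with at least 14 regions. The share called at SP4 exceeded that at DP by 28.6 points, more than in 95.1% of those windows. For SP8 the excess was 7.14 points, more than in 74.2%. The largest difference between stages at *Bax* was at a region 9114 bp downstream of the start site, which stood at 48.9 in DN and 2.3 in SP4 with no peak at DP or SP8. The tallest outside any promoter, 10393 bp upstream, stayed between 75.5 and 82.3, while regions at the start sites of *Gys1*, *Ruvbl2* and *Ftl1* reached 90.5 to 94.3. Thus the effectors had the largest shares of regions called at every stage among the 9 genes.

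**Figure D5:**
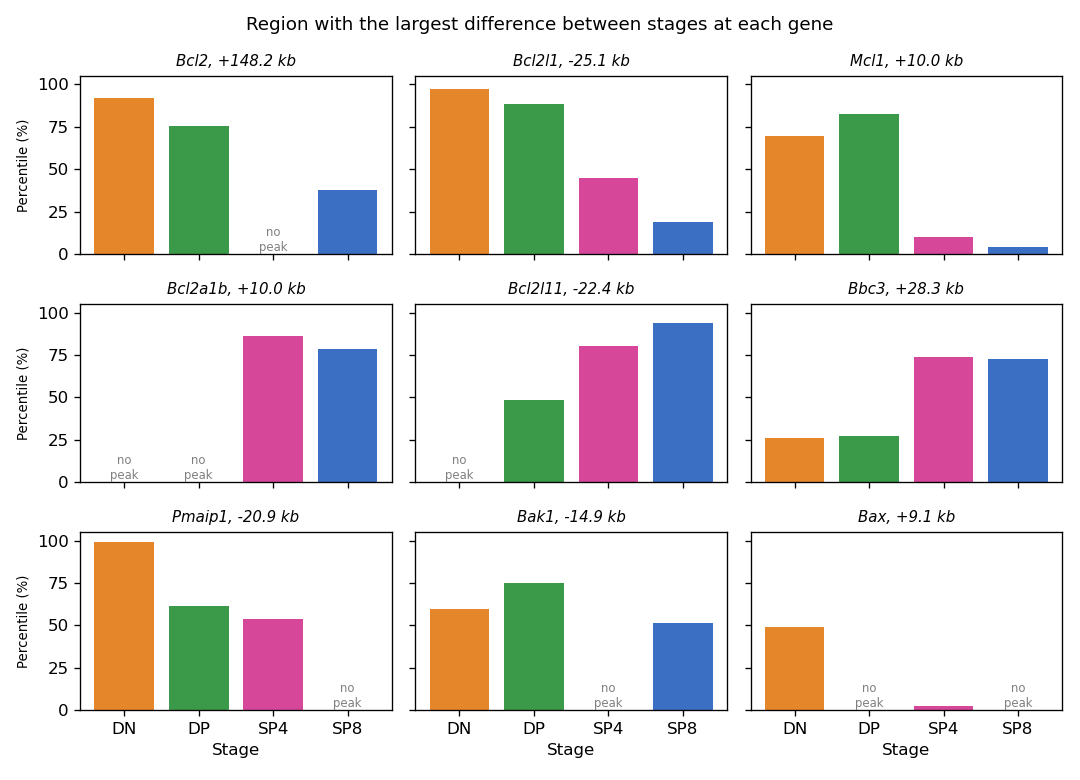
Bars give the percentile of fold enrichment at each stage (vertical axis, %) for the region with the largest difference between stages at each gene, titled by the distance of its summit from the start site in kb. The bars fall after DP at *Bcl2l1* and *Mcl1*, rise there at *Bcl2a1b*, *Bcl2l11* and *Bbc3*, and stand highest at DN at *Bcl2*, *Pmaip1* and *Bax*.

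Over the 94 regions called at all 4 stages, the range of the percentile between stages had a median of 20 (quartiles 12.2 and 34.5), against 20.9 over all 63369 such regions. A range of at least 30 points was seen in 33 (35.1%), against 33.6%. Heights at these genes thus varied between stages about as much as in the genome. Median GC content (49.7%) and width (231.0 bp) of the 248 regions equalled those of all regions.

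Other genes of the pathway were called at most promoters. Over all protein-coding genes, 56.1% of promoters were called at all stages and 32.7% at none. Among 15 other BCL-2 family genes, 10 had a promoter peak at all stages and 3 (*Bcl2l10*, *Bcl2a1a* and *Bcl2l14*) at none. The BH3-only genes *Bmf* and *Hrk* had 1 at DN, DP and SP8 and not at SP4, with percentiles of 11, 14.8 and 0.1 for *Bmf* and of 43.3, 31.3 and 24.9 for *Hrk*. All 12 caspases and their regulators, from *Apaf1* and *Casp9* to *Birc5*, were called at every stage. Of 8 inducers of death, 7 were called at every stage, and *Nr4a1*, a nuclear receptor induced by T cell receptor signals, at DP (0.6), SP4 (10.1) and SP8 (1.0) but not at DN.

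Short motifs were counted in 300 bp around the summits, on both strands. AP-1 (TGACTCA) was found in 30 of 248 regions (12.1%), against 6.97% of all regions, and in 14 of 94 regions called at all stages (14.9%, against 6.39%). By gene it was in 4 of 8 regions at *Bcl2a1b* and in 1 of 32 at *Bcl2l1*, which were chosen after their values were seen. FOXO (GTAAACA) was in 15 (6.05%, against 3.86%), NF-kB in 14 (5.65%, against 4.06%) and STAT (TTCNNNGAA) in 23 (9.27%, against 8.5%). These motifs were at or above the share of all regions. ETS (AGGAAGT, which can share bases with STAT) was in 31 (12.5%, against 18.1%), and in 3 of 62 regions called at SP4, SP8 or both alone (4.84%, against 15.9%). IKZF (TGGGAA) was in 46 (18.5%, against 23.6%), RUNX (TGTGGT) in 72 (29.0%, against 31.5%) and E-box (CAGCTG) in 53 (21.4%, against 23.0%). ETS and IKZF were thus below the share of all regions, while RUNX and E-box were close to it. E-boxes were in 25% of regions called at DN, DP or both alone and in 14.5% of those at SP4, SP8 or both alone, against 29.5% and 13.0% of all such regions. GATA factors (AGATAA, 12.5% against 12.7%), MYB (CAACTG, 16.1% against 15.3%), TCF7/LEF1 (CTTTGAT, 4.84% against 5.68%) and CTCF (2.82% against 3.12%) were close to the share of all regions. ROR and glucocorticoid receptor motifs had 1 match each (0.403%, against 0.623% and 0.263%). A match is a run of letters and not a bound site.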

How the data were processed

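ATAC-seq libraries were made from 4 sorted thymocyte stages of 4 mice. The authors aligned them to mm10 (BWA), took out duplicates (Picard), retained proper pairs that mapped uniquely, down-sampled to the median depth and merged the mice of each stage for MACS2 peak calling at 5% FDR. The deposited fold enrichment of each peak is a ratio over local background computed by the authors. Each peak also carries the −log10 q-value of MACS2, as deposited. Depth is not in the lists.

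Peaks sharing at least 1 bp were merged across stages with Python 3.11.15 and pandas 2.3.3, and classed by the stages with a peak. A region belonged to a gene when it overlapped its body or 30 kb on either side (GENCODE M21). Percentiles of fold enrichment were taken within each list. Shares carry 95% Wilson intervals (scipy 1.17.1). Sequences came from GRCm38.p6. The scripts were tested on simulated data.

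The members, gene lists and motifs were chosen with earlier results of these data known. Regions named are, for each gene, the promoter, the tallest region outside promoters and that with the largest percentile difference between stages, and, for each stage, the 3 tallest single-stage regions. Lists covered other BCL-2 family genes, caspases and their regulators, inducers of death and markers of thymocytes and 5 other cell types. The alternatives tried were other flanks, overlaps, thresholds of −log10 q-value (3 and 5), merging rules, equal numbers of peaks and percentiles of q-value. Reads were not analysed here. The values of a further motif and the sequence of a further region are not reported here.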

Additional observations from a re-analysis of the deposited data

How the results depend on the processing

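No paired analysis was possible because each deposited list pools the 4 mice of a stage, and no replicate could be left out for the same reason. The number of regions in the windows moved from 248 to 111 with no flank and to 152 with a flank of 10 kb. Merging only peaks with a reciprocal overlap of 50% took the share called at all 4 stages from 37.9% to 25.3% and the share called at a single stage from 32.3% to 40.3%. Shares over all regions were not computed under that merging rule, so these values cannot be set against the genome-wide shares given above. With equal numbers of peaks per list, the DN-only share moved from 10.9% to 4.52% (11.1% over all regions), the share called at DN and not at DP from 21.0% to 10.9% (17.1%), and the ratio of DN to DP peaks from 1.27 to 0.937 (1.0). The remaining 68 values of the shares, ratio, promoter counts and heights stayed within 1.5 times the count or within the interval of the share, and none was reversed. For heights, the value was the number of largest-difference regions whose tallest stage was the same by q-value, 9 of 9. The percentiles themselves were not held to a limit, and the drop downstream of *Mcl1* was smaller by q-value, as given above. Among alternatives chosen after seeing the data, the excess of *Bcl2* regions called at SP4 or SP8 over DP was 14 to 26 regions in all settings, against 25 and 19, while that at *Bcl2a1b* was 0 with no flank and 1 to 2 with 10 kb. At *Bak1* the difference of -4 was -1 with no flank or 10 kb and -2 for SP4 with reciprocal overlap. The share called at DN, DP or both alone was 24% with reciprocal overlap, again with no share over all regions under that rule. Of the 9 promoters, 7 were called at every stage with equal numbers of peaks or with the promoter taken as the 200 bp upstream of the start site, and 8 at a −log10 q-value of at least 5. The pooled lists hold no spread between mice, and a missing peak can be a site under the threshold.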
